A study of Drosophila melanogaster with 10 samples.

Results

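Transcripts of the cytosolic glutathione transferases (GSTs) were examined in adult Drosophila melanogaster females from lines selected for heat resistance and from unselected control lines. The members were the genes with a symbol of the form GstD, GstE, GstS, GstT, GstO or GstZ followed by a number, on array probe sets that name that gene alone. They were 34 genes, measured by 36 of the 14010 probe sets on the array: 11 of class D (Delta), 14 of class E (Epsilon), 1 of class S (Sigma), 3 of class T (Theta), 3 of class O (Omega) and 2 of class Z (Zeta). GstT1 was not analysed here, nor was sepia (se), an Omega enzyme whose symbol does not carry the family name, counted as a member. The probe set with the highest mean stood for a gene with several, which touched GstO2 only.

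The samples were 5 heat-selected lines and 5 control lines, with RNA of whole adult females of each line hybridised to its own array. The series describes the lines of a group as independent, and the p-values below reflect the variation among them. The labels give no genotype, age, mating state or heat treatment before sampling. A whole fly pools all organs, so more cells of a type and more RNA per cell cannot be told apart. Values are given as log2(intensity + 1), and every difference has the control mean subtracted from the selected mean on that scale.

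GSTs join the tripeptide glutathione to reactive, often fat-soluble compounds, which makes these easier to excrete, and several also break down lipid peroxides. In insects the Delta and Epsilon classes have expanded into clusters of neighbouring genes and are best known for insecticide resistance and for induction by oxidative and chemical stress, much of it through the transcription factor CncC (gene cnc) and its inhibitor Keap1. Much of this detoxification takes place in the midgut, the Malpighian (renal) tubules and the fat body. The other classes are more conserved: Sigma is abundant in insect flight muscle, Omega enzymes reduce disulfides and dehydroascorbate and take part in eye pigment synthesis, and Zeta acts in the breakdown of tyrosine.

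On the chromosomes, 10 Epsilon genes (GstE10, then GstE1 to GstE9) lay side by side on arm 2R with no other protein-coding gene between them. The 11 Delta genes filled a stretch of 12 protein-coding genes on arm 3R. The 3 Omega genes lay within 4 genes on arm 3L, with se between GstO3 and GstO2, and GstZ1 and GstZ2 were neighbours on arm 3R. GstE11 to GstE14, GstS1 and the Theta genes lay apart. Neighbouring copies have similar sequences, and the part of hybridisation to a related copy in any value below was not tested.

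Array medians lay between 41.9 and 48.3 intensity units. On control probe sets for fly housekeeping genes the log2 excess of 3' signal, which grows where RNA is degraded or incompletely copied, was 2.76 in selected line 1 and 2.27 in control line 1, against 1.43 to 1.74 in the other selected lines and 1.72 to 1.93 in the other control lines. The 23 probe sets of other organisms reached 3.64, and the means of 27 of the 34 GST genes lay above that level. The other 7 (GstD4, GstD6, GstD7, GstD10, GstD11, GstE4 and GstE14) carry little information, although all 34 passed the filter for the test (a log2 value above 3 on at least 5 arrays). The summed intensity of 6 yolk and eggshell markers was 65075 to 86075 in the selected lines and 80330 to 93563 in the control lines, and the measured male markers lay near the level of other organisms' probe sets in both groups.

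Between the groups, no GST gene differed past the threshold of an adjusted p of 0.05 over all 10960 features (limma, two-sided). The smallest adjusted p of a member was 0.506, and the smallest over all features was 0.232. At an unadjusted p under 0.05 stood 1 of 34 genes, GstD5, where 9.52% of all features did so. The groups overlapped for all 34 genes, and 1.59% of all features had separate groups. Selected means were higher for 16 of the 34 and lower for 18, against 53.7% higher over all features. The median difference was -0.01 over the family and 0.01 over all features. The median absolute difference was 0.063 over the family and 0.065 over all features. The 95% intervals of the differences ran from -0.66 at the lowest to 1.05 at the highest, and for 33 of 34 genes they lay inside a 2-fold change either way. GstD2 was the exception. For 25 genes they lay inside a 1.5-fold change. Both counts include the 7 genes not above the probe sets of other organisms, whose narrow intervals exclude little. The shares over all features were not computed.

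The count of 1 gene rested on the lines included. It was 0 without selected line 3 or 4 or without control line 2, 4 or 5. It stayed at GstD5 alone without selected line 2 or 5 or control line 3, and it was 1 gene, GstS1, without selected line 1. It was 3 (GstE2, GstE5 and GstE12) without control line 1. Without line 1 of both groups it was 3 (GstE2, GstE5 and GstS1). None of these passed the adjusted threshold, and 12.3% of all features were at an unadjusted p under 0.05 without control line 1, 11.4% without selected line 1 and 13.8% without both.

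**Figure D1:**
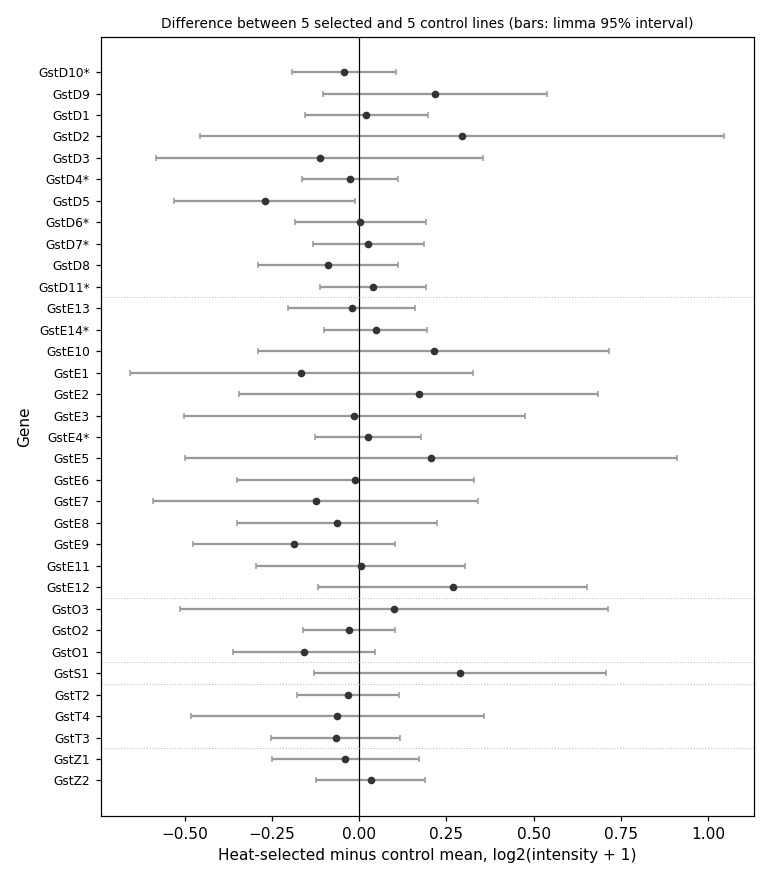
Difference between the selected and control means of each GST gene on the log2 scale, with the 95% interval from limma (5 lines per group). An asterisk marks genes whose mean is not above the probe sets of other organisms. Every interval except that of GstD5 includes 0.

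Class D was split, with 6 higher and 5 lower means, a median difference of 0.003 and a range of -0.27 to 0.29. Only 6 of its 11 genes were above the probe sets of other organisms. GstD1, a broad detoxification enzyme known for its activity on DDT, had values of 13.05, 13.18, 13.18, 13.41 and 13.26 in selected lines 1 to 5, against 13.06, 13.26, 13.28, 13.26 and 13.11 in control lines 1 to 5. Line 1 was the lowest of its group in both, and the groups lay on top of each other. The difference was 0.02 ± 0.08 (SE), with an interval of -0.15 to 0.20, so a 1.5-fold change either way lies outside it.

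GstD5 had values of 3.78, 3.91, 3.48, 3.68 and 4.09 in the selected lines, against 4.33, 4.07, 3.87, 4.02 and 4.00 in the control lines. Of the selected lines, 1 (line 5) lay above the control median, and selected line 3 was the lowest of all. The difference was -0.27 ± 0.12 (SE; limma unadjusted p = 0.0423, adjusted p = 0.506), at levels little above those of other organisms' probe sets.

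GstD2 spread most within the selected group, at 5.70, 6.36, 5.06, 5.39 and 6.85 in selected lines 1 to 5, against 6.50, 5.55, 5.33, 5.27 and 5.24 in control lines 1 to 5. Selected lines 5 and 2 and control line 1 stood above the rest, which lay between 5.06 and 5.70. Its difference was 0.29 ± 0.34 (SE), and it became 0.57 without line 1 of both groups and 0.05 without selected line 5. GstD9 had values of 7.71, 7.35, 7.89, 7.43 and 8.05 in the selected lines, against 7.78, 7.41, 7.32, 7.59 and 7.25 in the control lines, a difference of 0.22 ± 0.15 (SE). GstD3 was lowest in selected line 3 (8.29) and highest in selected line 5 (9.31), and ran from 8.49 to 9.26 in the control lines. Selected line 3 was also the lowest line for GstD2, GstD5 and GstD8.

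Class E had 7 higher and 7 lower means and a median difference of -0.003. In the cluster of 10 genes, 4 were higher and 6 lower. GstE1, an enzyme known to conjugate 4-hydroxynonenal (a product of lipid peroxidation), had values of 8.13, 9.19, 8.10, 8.92 and 8.44 in selected lines 1 to 5, against 8.49, 8.94, 8.32, 9.10 and 8.75 in control lines 1 to 5. In both groups lines 2 and 4 were the highest, and the ranges overlapped over most of their length. The difference was -0.17 ± 0.22 (SE).

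GstE6 had values of 10.74, 10.20, 10.36, 10.07 and 10.58 in the selected lines, against 10.81, 10.17, 10.45, 10.11 and 10.47 in the control lines. Line 1 was the highest of its group in both and line 4 the lowest, and the difference was -0.01 ± 0.16 (SE). GstE10 had values of 3.96, 4.08, 4.42, 4.14 and 3.87 in the selected lines, against 4.57, 4.11, 3.61, 3.09 and 4.03 in the control lines. The control lines spread further (SD of 0.56, n = 5) than the selected lines (SD of 0.21, n = 5). The values of control lines 3 and 4 lay within the range of other organisms' probe sets.

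GstE12, which lies away from the cluster, had values of 10.01, 9.57, 9.62, 9.38 and 9.25 in the selected lines, against 9.80, 9.14, 8.96, 9.11 and 9.49 in the control lines. All 5 selected lines lay above the control median, but control lines 1 and 5 lay among them. The difference was 0.27 ± 0.18 (SE; limma unadjusted p = 0.156, adjusted p = 0.771), and 0.39 ± 0.16 without control line 1 (adjusted p = 0.322 from limma). GstE9 differed by -0.19 ± 0.13 (SE), with means of 8.77 and 8.96 in the selected and control lines. GstE14, known as noppera-bo for its role in making the moulting hormone ecdysone in larvae, was at 3.26 to 3.38 in the selected lines and 3.07 to 3.35 in the control lines, within the range of other organisms' probe sets.

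GstS1, the only Sigma enzyme of the fly, is abundant in indirect flight muscle. It had values of 9.73, 10.53, 10.85, 10.76 and 10.15 in selected lines 1 to 5, against 10.07, 9.89, 10.14, 10.29 and 10.21 in control lines 1 to 5. Selected lines 2, 3 and 4 stood above every control line, and selected lines 1 and 5 lay within or below the control range. The difference was 0.29 ± 0.19 (SE; limma unadjusted p = 0.159, adjusted p = 0.775), and 0.46 ± 0.14 without selected line 1 (unadjusted p = 0.00814, adjusted p = 0.236).

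The summed intensity of 5 muscle markers (Tm2, up, Mlc2, Act88F and fln; 5 of the 6 listed, with Mhc not analysed here) was 6675, 16876, 17370, 17319 and 8674 in selected lines 1 to 5, against 8924, 2976, 4781, 6062 and 8100 in control lines 1 to 5. Of these markers, 3 were at an unadjusted p under 0.05 (limma) and higher, and 0 passed the adjusted threshold. The same selected lines, 2, 3 and 4, stood above all others, and control line 2 was lowest of the control lines in both measures. Among the other control lines the order differed. Control line 1 had the highest muscle sum of the control lines but lay below control lines 3, 4 and 5 for GstS1. Control line 4 was the highest control line for GstS1, with a muscle sum of 6062. The part of muscle RNA in the level of GstS1 was not tested.

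**Figure D2:**
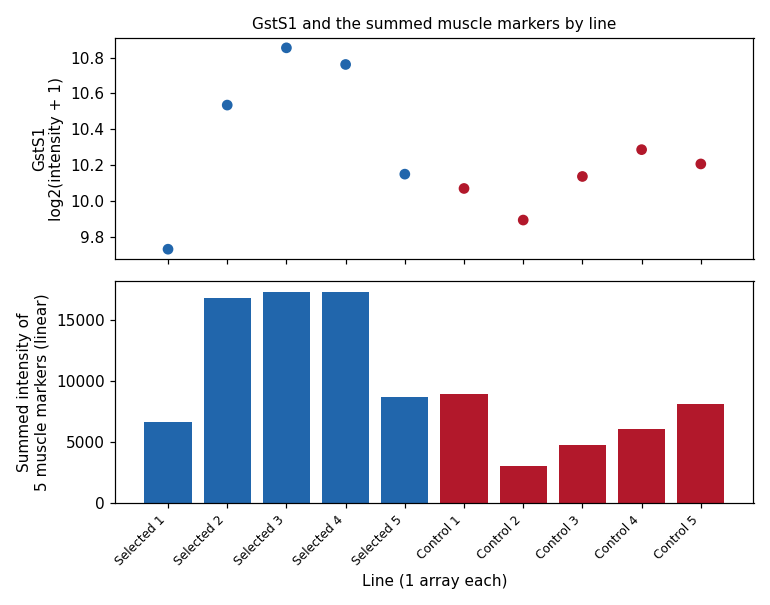
Log2 level of GstS1 (top) and summed linear intensity of 5 muscle markers (bottom) in each line, selected lines in blue and control lines in red. Selected lines 2, 3 and 4 are the 3 highest in both panels.

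Of the Omega genes, GstO1 had values of 8.87, 8.90, 8.88, 8.54 and 8.81 in selected lines 1 to 5, against 9.09, 9.12, 8.95, 8.81 and 8.83 in control lines 1 to 5. No selected line reached the control median, although control lines 4 and 5 lay within the selected range. The difference was -0.16 ± 0.093 (SE; limma unadjusted p = 0.117, adjusted p = 0.696). GstO2 had values of 9.44, 9.54, 9.59, 9.53 and 9.46 in the selected lines, against 9.58, 9.63, 9.50, 9.46 and 9.52 in the control lines, and the groups overlapped over most of their range. It differed by -0.03 on this probe set, its brightest, and by -0.06 on each of the others. GstO3 differed by 0.10 ± 0.28 (SE). The neighbouring se, which makes a precursor of the red eye pigments, differed by -0.02 ± 0.068 (SE). The summed intensity of 4 measured photoreceptor markers (of 6) was 2764 to 4349 in the selected lines and 1861 to 3221 in the control lines, and the part of eye tissue in the Omega values was not tested.

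All 3 measured Theta genes had lower means in the selected lines, by 0.03 to 0.07. GstT3 had values of 8.55, 8.25, 8.62, 8.37 and 8.60 in the selected lines, against 8.63, 8.45, 8.48, 8.61 and 8.55 in the control lines, a difference of -0.07 ± 0.084 (SE). GstT2 averaged 8.47 ± 0.082 in the selected lines and 8.50 ± 0.086 in the control lines (SD, n = 5 each). The Zeta genes were as close: GstZ1, which isomerises maleylacetoacetate in tyrosine breakdown, averaged 7.06 ± 0.083 in the selected lines and 7.10 ± 0.20 in the control lines, and GstZ2 averaged 4.73 ± 0.12 in the selected lines and 4.70 ± 0.060 in the control lines (SD, n = 5 each). GstZ1 had values of 7.17, 7.05, 7.10, 6.94 and 7.05 in the selected lines, against 7.19, 7.39, 7.07, 7.004 and 6.85 in the control lines, which spanned the selected range. GstZ2 had values of 4.53, 4.82, 4.72, 4.82 and 4.77 in the selected lines, against 4.78, 4.63, 4.71, 4.66 and 4.71 in the control lines, which lay within the selected range.

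**Figure D3:**
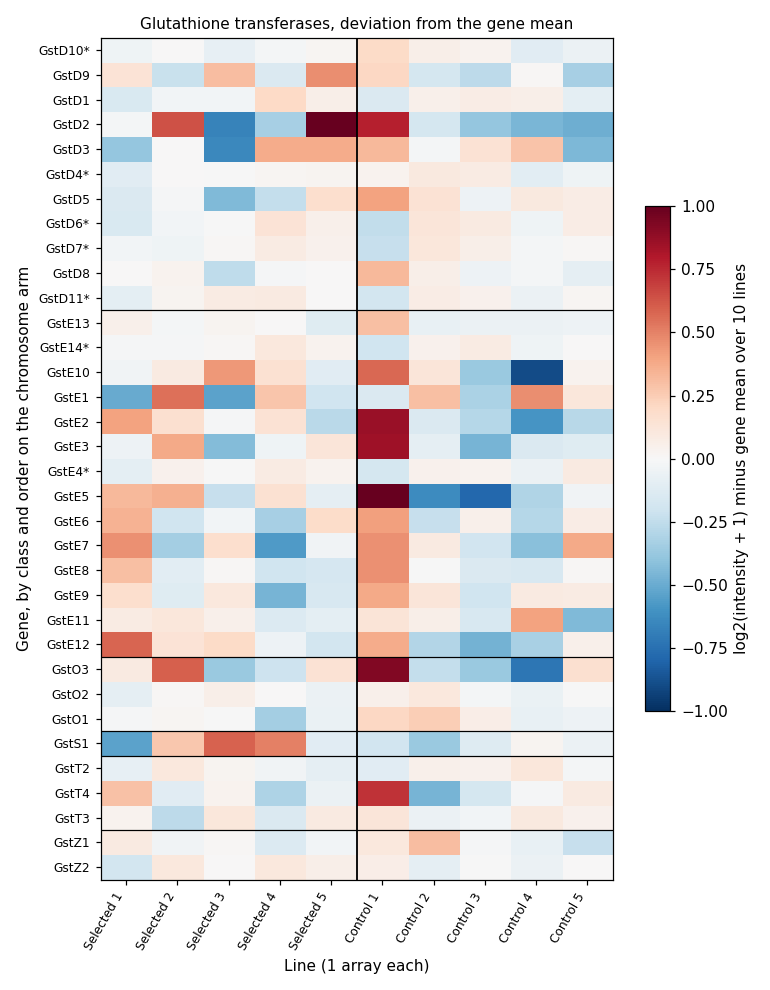
Log2 value of each GST gene in each line minus the mean of that gene over the 10 lines, selected lines left and control lines right (colours saturate at 1 either way). Control line 1 has the highest value for 14 of the 34 genes, while it has the lowest for 5 of the 7 dim genes marked by an asterisk.

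Control line 1 was the highest of the 10 lines for 14 of 34 GST genes (41.2%), where it was highest for 12.4% of all features. It was the lowest for 6 genes, where it was lowest for 30.5% of all features. Selected lines 1 to 5 were highest for 2, 1, 1, 5 and 3 GST genes, and for 10.8%, 7.17%, 5.16%, 27.2% and 3.22% of all features. Control lines 2 to 5 were highest for 5, 0, 2 and 1 GST genes, and for 16.5%, 5.64%, 8.49% and 3.39% of all features. The gap of control line 1, its value minus the median of the other 9 lines, had a median of 0.26 over the GST genes and -0.08 over all features.

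These counts differed with the level of the probe sets. Among the 27 genes above the probe sets of other organisms, control line 1 was highest for 13 and lowest for 1 (GstT2), where it was highest for 14.3% and lowest for 20.4% of all features that bright. Among the 7 dim genes it was highest for 1 and lowest for 5, where it was highest for 2.42% and lowest for 84% of dim features. The probe sets of other organisms themselves had their lowest median on that array, at 2.65 against 2.76 to 2.98 on the others.

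Control line 1 lay more than 0.5 above the median of the other 9 lines for 8 GST genes (23.5%), against 5.05% of all features, and more than 0.5 below it for 0, against 3.68%. The limit of 0.5 was chosen after the values were seen. The 8 were GstE5, GstO3, GstD2, GstE2, GstE3, GstT4, GstE8 and GstE10, from classes D, E, O and T. Selected lines 1 to 5 had 2, 3, 1, 1 and 2 such genes, against 4.17%, 3.15%, 2%, 2.19% and 0.639% of all features. Control lines 2 to 5 had 0, 0, 1 and 0, against 1.3%, 0.675%, 0.94% and 0.776%.

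**Figure D4:**
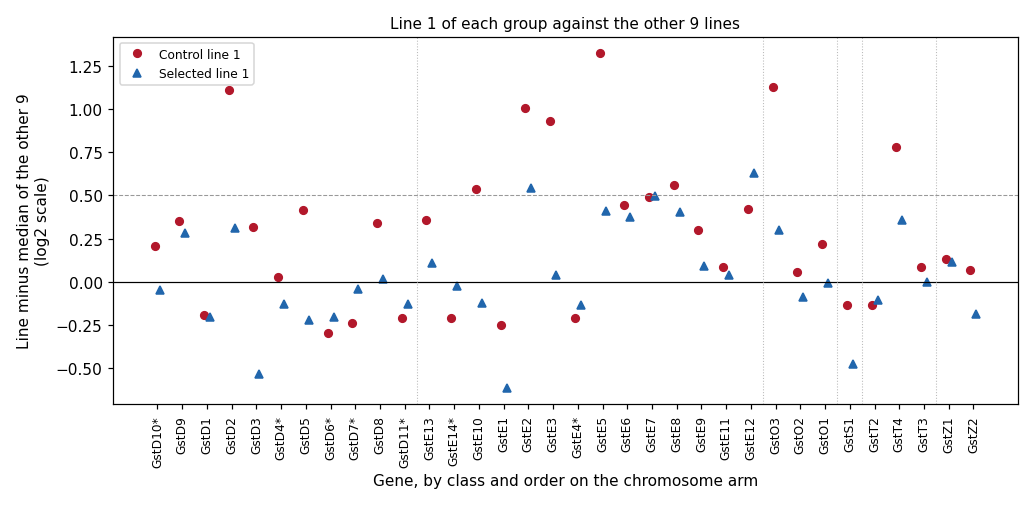
Value of line 1 minus the median of the other 9 lines for each GST gene, for control line 1 (red circles) and selected line 1 (blue triangles), in class and chromosome order on the log2 scale. The dashed line is at 0.5, and control line 1 reaches from -0.30 (GstD6) to 1.32 (GstE5).

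GstE5 had the widest gap. It was at 6.58 in control line 1, against 4.72, 4.55, 5.04 and 5.31 in the other control lines and 5.66, 5.70, 5.11, 5.49 and 5.25 in selected lines 1 to 5. Control line 1 stood 1.32 above the median of the other 9, which is 2.50-fold, and was clear of every one of them. GstE2 was at 5.35 in control line 1, against 4.34, 4.20, 3.90 and 4.21 in the other control lines and 4.89, 4.64, 4.47, 4.63 and 4.21 in the selected lines. Selected line 1 came second. GstE3 was at 8.60 in control line 1, against 7.66, 7.29, 7.61 and 7.63 in the other control lines and 7.70, 8.13, 7.31, 7.70 and 7.87 in the selected lines, with selected line 2 second.

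Outside class E, GstO3 was at 8.79 in control line 1, against 7.62, 7.49, 7.14 and 8.03 in the other control lines and 7.95, 8.46, 7.49, 7.65 and 8.01 in the selected lines. GstT4 was at 9.34 in control line 1, against 8.16, 8.45, 8.61 and 8.71 in the other control lines and 8.92, 8.51, 8.66, 8.31 and 8.56 in the selected lines. Control line 1 was the highest line for both, with selected line 2 next for GstO3 and selected line 1 next for GstT4. GstD2, given above, was the exception among the 6 widest gaps, since selected line 5 exceeded control line 1. GstE13 had a small but clear gap, at 8.50 in control line 1 against 8.12 to 8.14 in the other control lines and 8.08 to 8.25 in the selected lines.

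**Figure D5:**
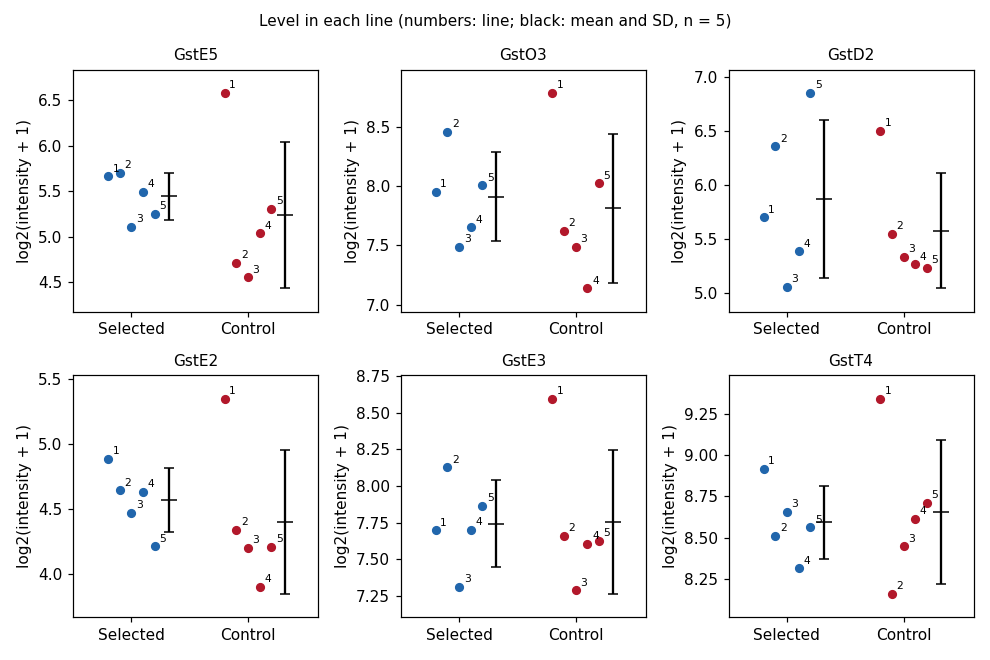
Log2 levels of the 6 genes with the widest gap between control line 1 and the median of the other lines. Selected lines are left and control lines right, numbered by line, with the mean and SD of each group (n = 5). Control line 1 is the highest of all 10 points except for GstD2, where selected line 5 is higher.

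Within the Epsilon cluster the gap was not even. Read along the chromosome it was 0.54 for GstE10, -0.25 for GstE1, 1.01 for GstE2, 0.93 for GstE3, -0.21 for the dim GstE4, 1.32 for GstE5, 0.44 for GstE6, 0.49 for GstE7, 0.56 for GstE8 and 0.30 for GstE9. Control line 1 was highest for 7 of these 10 and the median gap was 0.52. In the 4 Epsilon genes elsewhere it was highest for 1 (GstE13), with a median gap of 0.22. In class D, where the median gap was 0.21, GstD2 (1.11), GstD5 (0.42), GstD9 (0.35), GstD8 (0.34) and GstD3 (0.31) were above the other lines' median and GstD1 was below it by 0.19. GstS1, GstT2 and GstE1 were the other genes of clear signal below it. GstO2, whose brightest probe set gave a gap of 0.06, had gaps of 0.42 and 0.21 on its other 2 probe sets, so its probe sets disagree.

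Selected line 1, which had the largest 3' excess, was highest for 2 GST genes. It was more than 0.5 above the median of the other 9 lines for 2, GstE12 (0.63) and GstE2 (0.55), against 4.17% of all features. It was more than 0.5 below that median for 2, GstE1 (-0.62) and GstD3 (-0.54), against 5.47% of all features. The median deviation of the 10 cluster genes from their means was 0.46 in control line 1, 0.23 in selected line 1 and -0.24 to 0.07 in the other 8 lines. The part of RNA quality in the values of either line 1 was not tested. Since each line gave 1 array, the values of control line 1 carry no test and no error of their own.

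Summed intensities of organ markers are given beside this. The 6 measured midgut markers (of 10) summed to 17994 in control line 1, against 12732 to 15413 in the other control lines and 14901 to 18621 in the selected lines. All 6 were above the median of the other 9 lines in control line 1 (median gap 0.34). Most of its sum was alphaTry and betaTry, at log2 levels of 12.62 and 12.69. The 8 fat body markers summed to 29557 in control line 1, against 33050 to 37137 in the other control lines and 28355 to 35982 in the selected lines. Most of that sum was Yp1, also a female marker. Without it the sum was 7151 in control line 1, against 6152 to 7147 in the other control lines and 4278 to 7738 in the selected lines. In control line 1, 6 of the 8 markers were above the median of the other 9 lines (median gap 0.20). Of these 6, Fbp2 had a gap of 0.004 at the level of other organisms' probe sets. Lsp2 had a gap of 1.78 but was at 9.36 in control line 1, below the control mean of 9.68, with a selected mean of 6.20. The 5 measured Malpighian tubule markers (of 8, with the tubule gene Uro not analysed here) summed to 935 in control line 1, against 571 to 896 in the other control lines and 986 to 1053 in the selected lines. In control line 1, 1 of the 5 was above the median of the other 9 (median gap -0.18). Most of the tubule sum was ZnT35C, with selected and control means of 9.88 and 9.52, where the other tubule markers had group means of 3.55 to 5.19. Over all features the median gap of control line 1 was -0.08, and the share of features above the median was not computed. The tubule markers NaPi-T, salm and bib had group means of 3.55 to 4.17, near the level of other organisms' probe sets, so their gaps carry little information. The share of these organs in the GST levels was not tested.

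Leaving out control line 1 moved the differences of the genes highest in it. The direction was fixed by the choice of these genes, since dropping the highest control line lowers the control mean. GstE5 then differed by 0.54 ± 0.17 (SE) and GstE2 by 0.41 ± 0.13, against 0.21 ± 0.32 and 0.17 ± 0.23 with all lines. Their adjusted p from limma were 0.209 and 0.224, so neither passed. Without line 1 of both groups they differed by 0.49 ± 0.18 and 0.33 ± 0.12 (adjusted p = 0.262 and 0.261). The difference of GstT4 was 0.11 without control line 1, against -0.06 with all lines, and that of GstO3 was 0.34, against 0.10. The median difference of class E was 0.05 without control line 1.

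The spread between lines of a group was described as well. The median SD of GST genes within groups was 0.21, against 0.15 over all features, and 19 of 34 genes exceeded the median of all features. Without control line 1 the medians were 0.17 over GST genes and 0.14 over all features. By class the median SD was 0.30 in class E, 0.15 in class O, 0.13 in classes D and T, 0.12 in class Z and 0.35 for GstS1. Over the 6 Delta genes above the probe sets of other organisms it was 0.23. In the Epsilon cluster it was 0.40, and 0.25 without control line 1. The steadiest bright members were GstO2, GstT2 and GstZ2, with SDs within groups of 0.063, 0.084 and 0.095. GstE13 had an SD of 0.011 over control lines 2 to 5 (n = 4).

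Other genes of glutathione and stress metabolism were counted from lists chosen by known function. None passed the adjusted threshold in limma, and the counts at an unadjusted p under 0.05 stand against 9.52% of all features. Of 8 genes of glutathione synthesis and turnover, 1 was at an unadjusted p under 0.05 and higher, the cysteine-pathway enzyme Cbs (0.16 ± 0.070, SE), and the methyltransferase Gnmt differed by -0.62 ± 0.29. At that level stood 0 of 11 thiol redox enzymes and 0 of 11 stress and xenobiotic regulators. The regulator cnc differed by -0.13 ± 0.068 and its inhibitor Keap1 by -0.12 ± 0.093. Of 4 oxygen radical enzymes, catalase (Cat) differed by 0.32 ± 0.10 and the extracellular superoxide dismutase Sod3 by -0.30 ± 0.11 (adjusted p = 0.350 and 0.404). With 1 line or line 1 of both groups left out, the counts of these 4 lists ran from 0 to 2.

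Enzymes with a related fold or activity included the microsomal glutathione transferase Mgstl, a membrane enzyme unrelated to the cytosolic family, which differed by 0.28 ± 0.10 (SE; limma adjusted p = 0.413). It was the 1 gene of 6 in that list at an unadjusted p under 0.05. The count at that level was 0 with the probe sets of a gene averaged and 0 without control line 2. It was 2 with array weights and 2 without selected line 1. Among 31 other detoxification enzymes, 3 were higher and 3 lower at that level, where 5.55% of all features were higher and 3.97% lower. The total of 6 became 3 without control line 2, 9 without control line 1 and 10 with the line number as a block. The esterase alpha-Est5 averaged 7.72 ± 0.12 in the selected lines and 8.03 ± 0.12 in the control lines (SD, n = 5 each), with separate groups. The esterase alpha-Est10 differed by 0.48 ± 0.14, the cytochrome P450 Cyp6w1 by -0.54 ± 0.18 and the UDP-glycosyltransferase Ugt35B1 by 0.73 ± 0.27 (SE; adjusted p of 0.313 to 0.404). Of 7 efflux pumps, the transporter Mdr49 differed by 0.29 ± 0.11, and of 5 pterin pathway genes 0 were at an unadjusted p under 0.05.

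Control line 1 was highest for 8 of the 31 other detoxification enzymes, where it was highest for 12.4% of all features. For 5 of the 31 it was more than 0.5 above the median of the other 9, against 5.05% of all features. Among these 5 were Cyp6w1 (0.95) and Ugt35C1 (1.01), of which Ugt35C1 was highest in control line 5. Control line 1 was highest for 3 of 11 thiol redox enzymes, with a median gap of -0.08 over that list. It was highest for 2 of 11 regulators, Keap1 (0.24) and the CncC partner maf-S (0.41). For 8 of them, cnc included (-0.08), it was below the median of the other 9, with a median gap of -0.17 over the list. The median gap over all features was -0.08, so that of cnc was typical. Only 9 of the 11 regulators had means above the probe sets of other organisms. In glutathione synthesis and turnover the median gap was 0.02. Gnmt was highest in control line 1, 0.58 above the median of the other 9. Gclc, the catalytic subunit of the first enzyme of glutathione synthesis, was 0.54 below the median of the other 9 in that line. Over the 5 pterin pathway genes the median gap was 0.25. All 5 were above the median of the other 9 in control line 1, and ry was highest in it (1.05). Median gaps were 0.08 over the oxygen radical enzymes, -0.009 over the enzymes of related fold or activity and -0.07 over the efflux pumps. The genes maf-S, Gclc and Ugt35C1 were picked for this paragraph after their values were seen.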

How the data were processed

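The deposited values are linear probe set intensities, 1 column per array, computed by the authors with GCRMA, the tool named in the submitters' processing notes. GCRMA corrects background from the probes' sequences, normalizes and summarises. Its version was not given in the sources used here. The linear scale was read from the values, 0.83 to 32744. The number of arrays limits the precision.

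A platform annotation gave 1 gene for 12444 of 14010 probe sets, several for 327 and none for 1239. Gene order came from RefSeq (Release 6 plus ISO1 MT). Intensities were taken to log2 with a pseudocount of 1, which understates changes of dim genes. Features needed a log2 value above 3 on at least 5 of 10 arrays, the brightest probe set stood for each gene, and 44 control probe sets were left out, leaving 10960 features. Group differences were fitted in limma 3.58.1 (R 4.3.3), without a block, two-sided, Benjamini-Hochberg adjusted over all features. The test was checked on simulated data. Organ markers were summed as linear intensities.

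Values per line are given for GstD1, GstE1 and GstS1, the brightest and the smallest-p gene of each class, genes at an unadjusted p under 0.05, the 6 widest gaps of control line 1 and the 4 largest SDs. GstD9, GstE9, GstE13, GstE14, GstD3 and GstT2 were added after their values were seen. From the other lists, up to 4 genes by smallest p were named. The members, lists and tests were chosen with earlier results of these data known. Sequences were not used here. The alternatives were other pseudocounts, filters, probe set summaries and normalizations, array weights, a 3' covariate, the line number as a block and leaving out lines.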

Additional observations from a re-analysis of the deposited data

Results flagged for a closer look

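In 7 of 68 groups of 5 lines, 1 line lay far from the other 4 by Dixon's test at its 95% level, which chance alone gives in about 1 in 20 groups. The share of such groups over all features was not computed, so the 7 have no background here. Of the 7 flags, 4 were control line 1 as the highest control line: GstD2 at 6.50 (next 5.55), GstE3 at 8.60 (next 7.66), GstE8 at 8.22 (next 7.78) and GstE13 at 8.50 (next 8.14). These 4 come from 1 array and are not separate draws. The other 3 were the lowest of the selected lines: GstD4 at 3.10 in line 1, within the range of other organisms' probe sets, GstD8 at 3.78 in line 3 and GstO1 at 8.54 in line 4.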

How the results depend on the processing

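Of the 18 GST genes named by rule, 9 kept the sign of their difference in each alternative run for them (20 or 21, since the filter at log2 above 5 removes dim genes), and none passed the adjusted threshold. The count of GST genes at an unadjusted p under 0.05, 1 as reported, was 0 with a pseudocount of 16, with a filter at log2 above 5 and with quantile normalization, and 0 to 3 with lines left out. GstD5 was also not called with array weights, where the 1 gene was GstD9 (0.45), or with the 3' covariate, where it was GstE12 (0.31). Genes with higher selected means numbered 8 with that filter, which tested fewer genes, and the median of class D was then 0.12. They numbered 22 with array weights and 14 to 21 with lines left out. Array weights gave 1783 features at an unadjusted p under 0.05 and 7 past the adjusted threshold, and leaving out lines gave 0 to 3 past it. With the line number as a block, GST genes at an unadjusted p under 0.05 were 2 (GstD5 and GstO1) and features past the adjusted threshold 2. Whole array profiles correlated at 0.984 to 0.997 over all features. The correlations that follow are of deviations from the group means, selected lines against control lines. Same-numbered lines correlated at 0.03 to 0.55 on these deviations. Only some lines correlated best with their own number, so the lines were not taken as pairs. All correlations of selected lines 1 and 2 with control lines 1 and 2 were positive (0.13 to 0.55). So were those of selected lines 3 to 5 with control lines 3 to 5 (0.03 to 0.43). Between these 2 sets all were negative (-0.46 to -0.06). Deviations from a group mean cancel over its lines, so a mix of positive and negative correlations is partly forced. The main fit holds no term for this split, and its cause was not tested.

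Small differences changed sign. Quantile normalization gave -0.0099 for GstD1 and -0.015 for GstZ2. Array weights gave 0.10 for GstE3, 0.056 for GstE6, 0.0082 for GstO2, 0.0074 for GstT3 and 0.053 for GstZ1. The 3' covariate gave 0.00559 as the difference of GstE3 and 0.028 as the difference of GstE6. With lines left out the differences ran from -0.027 to 0.062 for GstD1, -0.13 to 0.21 for GstE3, -0.098 to 0.091 for GstE6, -0.068 to 0.34 for GstO3, -0.19 to 0.11 for GstT4 and -0.10 to 0.033 for GstZ1. Control line 1 lay outside the other lines, as highest or lowest, for 20 genes in the main setting and for 16 with quantile normalization. It was the highest line for 14 in both. The gap of GstO2 was 0.22 with its probe sets averaged. The cause of these shifts was not tested. Signal near that of other organisms' probe sets limits what 7 genes can show.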
